A study of Mus musculus with 14 samples.

Results

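Collagens are trimers of chains that wind into a triple helix in the endoplasmic reticulum and are built into the extracellular matrix after secretion. Fibrillar collagens form the tensile fibres of connective tissue, type IV collagens form the sheet under epithelium and endothelium, type VI collagen forms beaded filaments around cells, and the remaining classes decorate fibrils, anchor basement membranes or span the plasma membrane. In solid tumours most fibrillar collagen is usually laid down by fibroblasts, although cancer cells can make collagen chains of their own.

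The genes described here are the collagen chain genes, chosen by symbol alone (Col, a number, a, a number). The rule found 44 genes of 24411 in the deposited tables. They encode chains of 27 collagen types, which fall into 11 fibrillar chains, 9 fibril-associated (FACIT) chains, 6 basement membrane network (type IV) chains, 6 beaded filament (type VI) chains, 4 transmembrane chains, 3 short chain network chains, 2 multiplexins, the anchoring fibril chain Col7a1 and 2 other chains.

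All 14 libraries are MC-38, a mouse colon cancer line, read by bulk RNA sequencing of total RNA. Of the 8 tumour libraries, 2 came from PAD4 knockout (KO) hosts with laparotomy on days 0 and 10, 2 from KO hosts without surgery (KO control), 2 from wild-type (WT) hosts with the same laparotomies, and 2 from WT hosts without surgery (WT control). Tumour cells were flow-sorted by their green fluorescent protein from lung tumours on day 30. PAD4 is the enzyme that citrullinates histones when neutrophils release extracellular traps (NETs). The labels call all 14 libraries WT in genotype, since the knockout is in the host, and the sources used here do not give the hosts' allele, strain or age. The remaining 6 libraries are cultures, 3 with chromatin of NETs made by neutrophils in vitro (NET culture) and 3 of cells alone (control culture). The comparisons address what NETs and surgery do to cancer cell transcripts. The labels do not state whether the libraries of each group are separate cultures or animals, and p-values therefore cover only the spread between libraries, which may be technical.

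Gene counts ran from 10.8 to 31.3 M in tumour libraries and from 6.39 to 20.6 M in cultures. Levels are counts scaled to the total in genes of each library (CPM) on 1 scale for all 14 libraries. Libraries within a group differed by more than counting noise in every pair (chi-square per degree of freedom of 2.74 to 47.7). Defining epithelial markers were nearly absent from the cultured line: the sum over 8 genes including Epcam, Krt8 and Cdh1 was 0.984 to 1.82 CPM in NET cultures and 0.859 to 1.72 CPM in control cultures, although MC-38 is named a colon cancer line. The pan-leukocyte, fibroblast, pericyte and endothelial marker sums were higher in every tumour library than in every culture. The macrophage sums of KO control replicate 1 and both WT laparotomy libraries lay within the range of the cultures. So did the lung epithelial sum of WT laparotomy replicate 1 and the neutrophil sum of WT laparotomy replicate 2. The mesothelial sum, nearly all Msln in cultures, was lower in tumours (7.15 to 28.1 CPM, against 279 to 547 CPM in cultures). Of its 5 markers, Msln alone was lower in every tumour library than in the control cultures, and 3 (Upk3b, Wt1 and Gpm6a) were higher. WT control replicate 2 stood apart. Its 7 pan-leukocyte markers summed to 696 CPM, against 51.4 to 128 CPM in the other tumour libraries, and its 11 lung epithelial markers to 868 CPM, against 17.2 to 429 CPM in the others. In bulk libraries, fewer cells of a type and less RNA per cell cannot be told apart.

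Of the 44 chains, 8 were under 1 CPM in every library (Col2a1, Col6a6, Col8a2, Col10a1, Col19a1, Col22a1, Col25a1 and Col28a1), and Col19a1 had no count in any. Genes with too few counts were left out of the tests, which kept 21 chains in the culture fit and 36 in the tumour fit and in the fit of all 14 libraries. In control cultures 15 chains reached 10 CPM in every library, and in tumours 17 did.

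**Figure D1:**
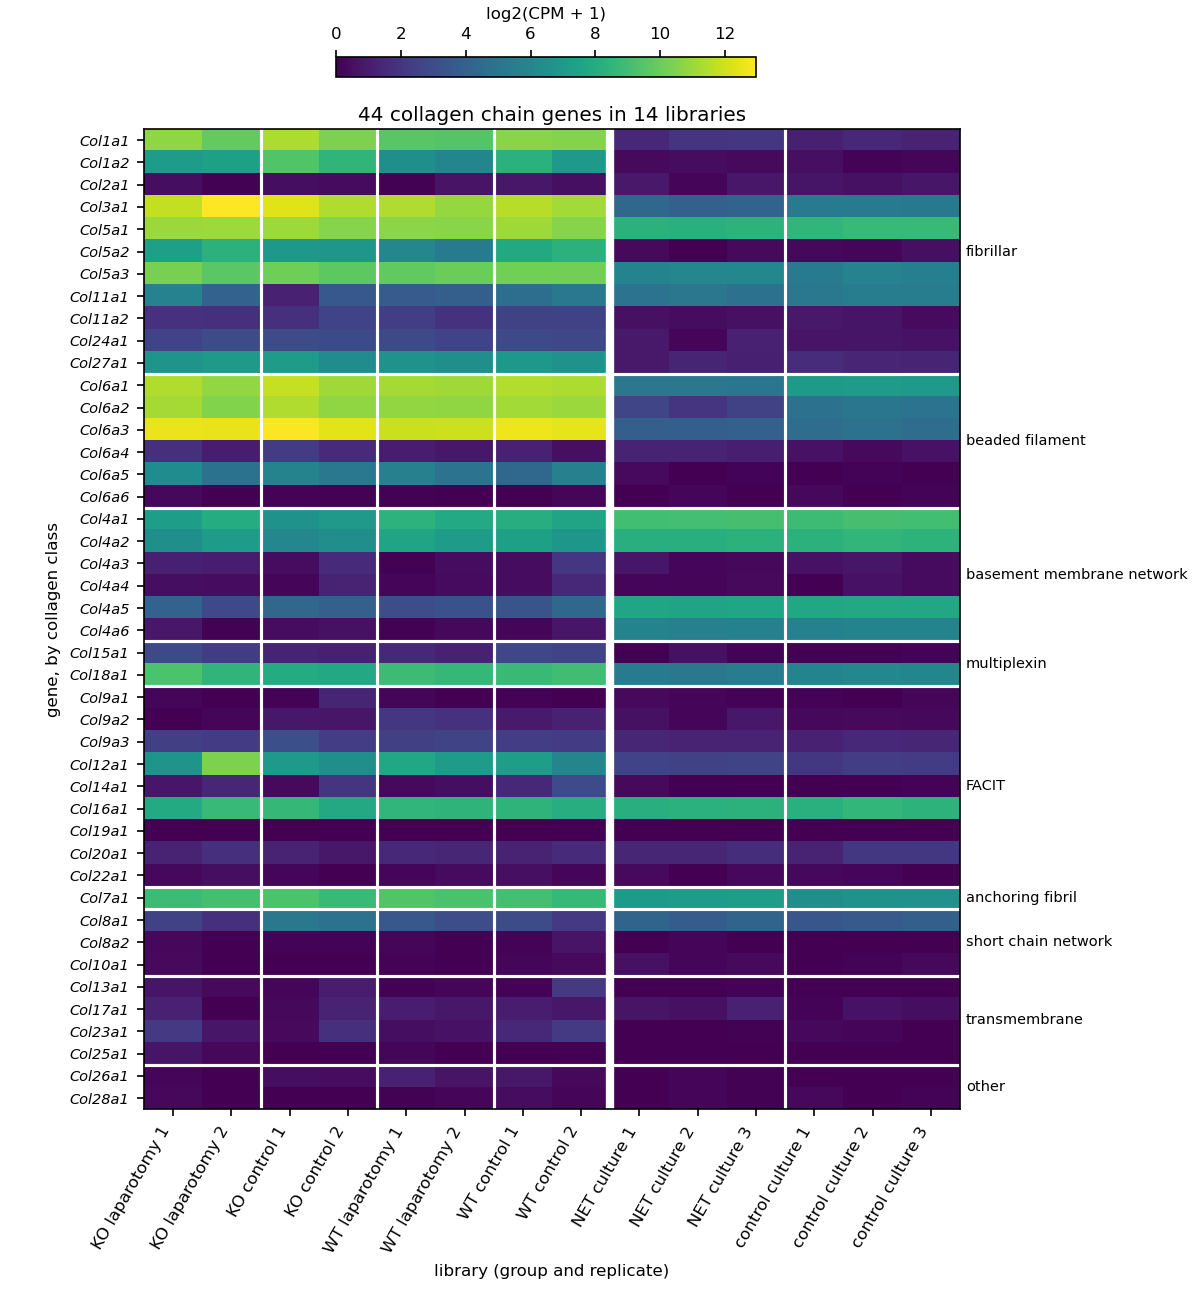
Level of each of the 44 collagen chain genes (rows, grouped by class) in each of the 14 libraries (columns), as log2(CPM + 1). The rows of Col1a1, Col1a2, Col3a1, Col5a1, Col5a2, Col5a3, Col6a1, Col6a2 and Col6a3 are brighter in the 8 tumour columns, the type IV rows Col4a1, Col4a2, Col4a5 and Col4a6 are brighter in the 6 culture columns, and Col12a1 is brightest in KO laparotomy replicate 2.

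Chains that take part in 1 trimer can be transcribed from neighbouring genes. Col6a1 and Col6a2 lie on the same strand of chromosome 10, 85.2 kb apart, and Col6a3 on chromosome 1. Col4a1 and Col4a2 lie head to head on chromosome 8 with 22 bases of overlap, and Col4a6 and Col4a5 head to head on the X chromosome, 1308 bases apart. Col3a1 and Col5a2 end towards each other on chromosome 1 with 24.6 kb between them. Upstream sequence is shown for the type VI trio, which fell together in NET cultures, for Col7a1, which rose there, and for Col8a1, which passed a tumour test. It runs 5′ to 3′ on the gene's strand and, except for Col6a1, ends at the annotated start of transcription (RefSeq, GRCm38.p6). Capitals mark a CCAAT box (CCAAT), a GC box (GGGCGG) or an AP-1 site (TGANTCA) on either strand. A TATA box (TATAAA) was searched as well. For Col6a1 only the 126 bases upstream of the gene's GENCODE span are printed of the 250 searched, with its AP-1 match as a stretch of its own (chr10:76726120-76726142). That stretch lies inside the span.
Col6a1 (chr10:76726169-76726294, minus strand): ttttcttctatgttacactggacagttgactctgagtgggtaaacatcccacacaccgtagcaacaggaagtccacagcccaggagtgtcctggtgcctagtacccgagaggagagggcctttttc
Col6a1 AP-1 match: tgatgctgTGACTCActcagctt
Col6a2 (chr10:76623631-76623880, minus strand): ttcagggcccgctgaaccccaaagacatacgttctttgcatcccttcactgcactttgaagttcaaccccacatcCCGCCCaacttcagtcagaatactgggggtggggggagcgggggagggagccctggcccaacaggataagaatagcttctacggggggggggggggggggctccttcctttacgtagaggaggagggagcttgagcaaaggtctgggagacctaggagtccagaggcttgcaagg
Col6a3 (chr1:90843972-90844221, minus strand): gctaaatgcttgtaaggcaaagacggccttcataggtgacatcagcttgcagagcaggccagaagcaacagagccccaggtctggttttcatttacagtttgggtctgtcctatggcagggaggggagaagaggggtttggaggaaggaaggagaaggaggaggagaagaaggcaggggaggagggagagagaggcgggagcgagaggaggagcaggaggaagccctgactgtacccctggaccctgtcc
Col7a1 (chr9:108953336-108953585, plus strand): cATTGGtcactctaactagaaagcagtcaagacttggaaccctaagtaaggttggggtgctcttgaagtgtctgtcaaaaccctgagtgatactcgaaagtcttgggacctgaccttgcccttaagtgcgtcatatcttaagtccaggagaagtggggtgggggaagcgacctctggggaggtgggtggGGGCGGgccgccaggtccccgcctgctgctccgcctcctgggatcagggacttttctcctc
Col8a1 (chr16:57754738-57754987, minus strand): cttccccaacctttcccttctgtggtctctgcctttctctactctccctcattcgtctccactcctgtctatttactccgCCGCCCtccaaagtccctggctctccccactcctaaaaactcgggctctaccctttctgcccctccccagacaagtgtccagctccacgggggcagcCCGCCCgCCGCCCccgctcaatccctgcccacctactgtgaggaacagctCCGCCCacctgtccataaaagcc

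In these windows of 250 bases, the 3 type VI chains shared none of the 4 motifs: the match in Col6a1 was the AP-1 site, the match in Col6a2 was a GC box, and Col6a3 had none. Col7a1 held a CCAAT box and a GC box, and Col8a1 held 4 GC boxes. RefSeq windows were matched for 35 of the 44 chains (38 windows). A GC box was present in 57.9% of these 38 windows, against 32.7% of all 32851 mouse windows, and an AP-1 site in 2.63%, against 6.75%. CCAAT boxes were present in 34.2%, against 33.8% of all windows, and TATA boxes in 13.2%, against 12.4%. A match is a run of letters and does not show that a factor binds there.

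NET chromatin changed the collagen profile of cultured MC-38 cells in both directions. The 3 common type VI chains and Col3a1 had the largest decreases, Col7a1 of anchoring fibrils rose, and Col4a1, the most abundant chain, gave no call. Of the 21 chains tested, 6 rose and 8 fell in edgeR's quasi-likelihood test at an adjusted p under 0.05. The share of all 11753 genes that passed was 54.1% in either direction, 26.3% higher and 27.8% lower, beside which 66.7% of the chains is no result about collagen in particular. Chains had a median log2 fold change of -0.15, and all genes one of 0.00. With library totals in place of TMM scaling, which moved the median of all genes to -0.156, 4 chains rose and 12 fell (over all genes, 1640 of the 6417 called were higher, against 3093 of 6363). With all 14 libraries in 1 fit, 1 chain rose and 5 fell of 36 tested (16.7%, against 25.8% of all genes). The calls lost in that edgeR fit were those on Col5a1 (adjusted p = 0.0598), Col6a4 (0.0712), Col5a3 (0.0845) and Col8a1 (0.305). Col1a1 (0.307), Col4a2 (0.563), Col11a1 (0.695) and Col12a1 (0.836) lost theirs there as well.

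The chains of type VI collagen, a filament that links cells to the surrounding matrix, had the 2 largest decreases. Col6a1 stood at 34.1, 33.8 and 33.2 CPM in the 3 NET cultures and at 130, 142 and 125 CPM in the 3 control cultures (log2 fold change -1.98 ± 0.08, SE; adjusted p = 1.07e-11). Col6a2 stood at 5.53, 2.82 and 4.81 CPM in NET cultures and at 27.8, 33.4 and 29.5 CPM in control cultures (-2.73 ± 0.15, adjusted p = 7.23e-10). Col6a3, the long chain that completes the trimer, had 14.1, 13.4 and 14.4 CPM in NET cultures and 23.96, 28.2 and 23.4 CPM in control cultures (-0.84 ± 0.11, adjusted p = 6.83e-06). For each of the 3 genes every NET culture lay below every control culture. The rare chain Col6a4, which can take the place of the third chain, moved the other way, with 1.48, 1.33 and 1.14 CPM in NET cultures and 0.537, 0.243 and 0.546 CPM in control cultures (1.501 ± 0.40, adjusted p = 0.00451).

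The 3 decreases were unequal. Per kilobase of transcript, Col6a1 was 9.48 ± 3.61 times Col6a2 in NET cultures and 4.98 ± 0.29 times Col6a2 in control cultures (SD, n = 3 each). Col6a3 was 0.189 ± 0.009 of Col6a1 per kilobase in NET cultures and 0.0865 ± 0.0035 of it in control cultures. The ranges of both ratios did not overlap between the groups, and the NET ratio to Col6a2 rests on 2.82 to 5.53 CPM of that gene.

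Among fibrillar chains, 2 rose and 3 fell of the 6 tested. Col3a1, the chain of type III collagen in pliable tissue, had 20.04, 14.7 and 16.2 CPM in NET cultures and 37.9, 40.4 and 36.9 CPM in control cultures (log2 fold change -1.18 ± 0.11, adjusted p = 2.26e-07). Col5a1, which helps to start fibrils, had 316, 299 and 336 CPM in NET cultures and 362, 442 and 425 CPM in control cultures (-0.36 ± 0.07, adjusted p = 0.000282). Col5a3, a further type V chain, had 56.2, 63.3 and 65.0 CPM in NET cultures and 41.0, 52.8 and 46.6 CPM in control cultures (0.39 ± 0.09, adjusted p = 0.00126). The groups did not overlap for any of these 3 genes. Col11a1, a chain of cartilage-type fibrils, had 29.5, 34.1 and 27.7 CPM in NET cultures and 35.7, 42.6 and 42.4 CPM in control cultures (-0.43 ± 0.10, adjusted p = 0.00237). Col1a1, the major chain of type I collagen, was scarce, at 1.84, 2.98 and 3.08 CPM in NET cultures and 1.18, 1.86 and 1.48 CPM in control cultures. Its ranges overlapped narrowly, and its rise (0.81 ± 0.27, adjusted p = 0.017) had an adjusted p of 0.0528 without control culture replicate 1, 0.0609 without control culture replicate 3, 0.154 without NET culture replicate 3 and 0.079 in DESeq2.

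Col7a1, whose product forms the anchoring fibrils that tie basement membrane to the matrix below it, had 132, 138 and 149 CPM in NET cultures and 84.7, 99.6 and 91.8 CPM in control cultures (log2 fold change 0.61 ± 0.07, adjusted p = 1.78e-06). Every NET culture was above every control culture. Col18a1, a multiplexin of basement membranes that holds the endostatin fragment, had 40.3, 33.8 and 42.4 CPM in NET cultures and 56.4, 66.1 and 61.0 CPM in control cultures (-0.64 ± 0.09, adjusted p = 9.1e-06). Here all NET cultures were below all control cultures. Col8a1, a short chain of network collagen known from vessel walls and Descemet's membrane, had 16.8, 12.8 and 17.2 CPM in NET cultures and 10.2, 11.3 and 14.2 CPM in control cultures, which overlapped (0.41 ± 0.14, adjusted p = 0.0178). Its adjusted p was 0.0633 and 0.0606 without control culture replicates 1 and 2, 0.107 without NET culture replicate 3, and 0.145 with library totals. Col12a1, a FACIT chain found along fibrils, had 5.04, 4.97 and 5.35 CPM in NET cultures and 3.22, 4.05 and 3.83 CPM in control cultures (0.46 ± 0.18, adjusted p = 0.0368). Without any one of NET replicates 1, 2 and 3 or control replicates 1 and 3 its adjusted p was 0.0554 to 0.119, and it was 0.152 with library totals, 0.129 in DESeq2 and 0.0694 with no filter on low counts.

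Type IV chains, the network of basement membranes, made up the largest class in culture and moved little. Col4a1 had 516, 544 and 559 CPM in NET cultures and 476, 557 and 516 CPM in control cultures (log2 fold change 0.07 ± 0.07, adjusted p = 0.383). Its partner Col4a2 had 292, 282 and 316 CPM in NET cultures and 320, 365 and 331 CPM in control cultures (-0.19 ± 0.06, adjusted p = 0.0183). The call on Col4a2 was lost without control culture replicate 2 (adjusted p = 0.0768) and without NET culture replicate 3 (adjusted p = 0.0512). The ratio of Col4a2 to Col4a1 per kilobase was 0.563 ± 0.028 in NET cultures and 0.673 ± 0.015 in control cultures (SD, n = 3 each). Col4a5 (-0.14 ± 0.06, adjusted p = 0.0518) and Col4a6 (-0.05 ± 0.08, adjusted p = 0.647) gave no call, nor did the FACIT chain Col16a1 (-0.15 ± 0.08, adjusted p = 0.114). Col9a3, Col20a1 and Col27a1, all under 4 CPM in the cultures, gave none either.

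**Figure D2:**
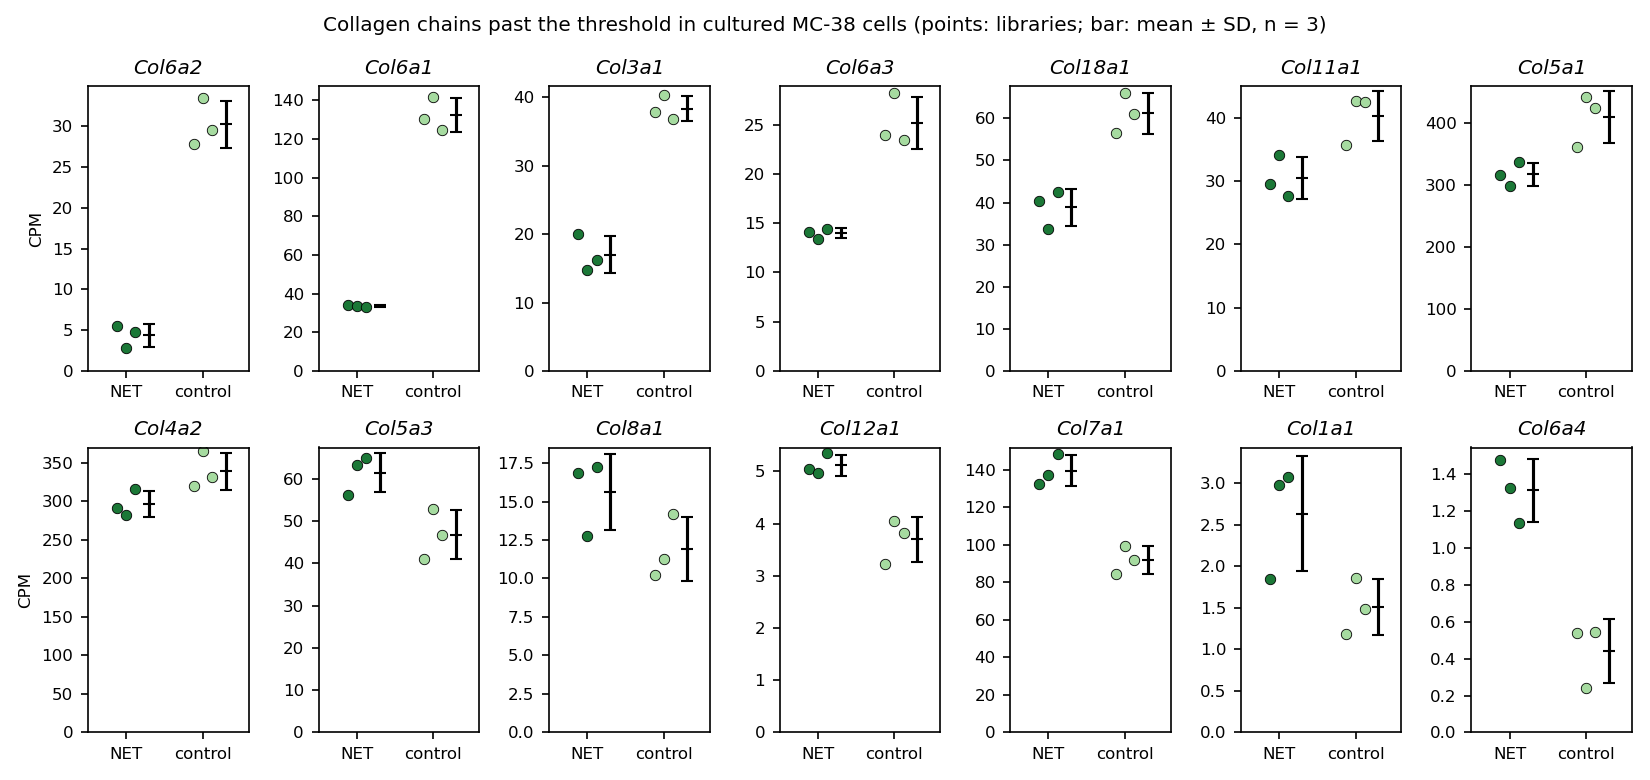
CPM of the 14 collagen chains past the threshold with NET chromatin, in NET cultures (left in each panel) and control cultures (right); points are libraries and bars are mean ± SD (n = 3). Col6a2 averages 4.39 CPM in NET cultures and 30.2 CPM in control cultures, while Col7a1 averages 140 CPM in NET cultures and 92.02 CPM in control cultures.

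Genes that modify, cross-link, bind or sense collagen were mixed as well. Of 60 such genes, 39 were tested in culture; 8 rose and 11 fell, which is 48.7% of them against 54.1% of all genes. Decorin (Dcn), a proteoglycan that binds fibrils, averaged 37.0 ± 2.2 CPM in NET cultures and 12.7 ± 0.8 CPM in control cultures (SD, n = 3 each; log2 fold change 1.55 ± 0.10, adjusted p = 6.34e-09). Sparc, a matricellular protein that binds collagen, averaged 97.3 ± 5.6 CPM in NET cultures and 148 ± 7 CPM in control cultures (-0.60 ± 0.06, adjusted p = 9.48e-07). The cross-linking enzymes Loxl3 (-0.84 ± 0.17, adjusted p = 0.000638) and Loxl4 (-0.57 ± 0.11, adjusted p = 0.000338) fell, as did the basement membrane proteoglycan Hspg2 (-0.42 ± 0.08, adjusted p = 0.000199) and the collagen receptor Ddr2 (-0.29 ± 0.07, adjusted p = 0.00157). P4ha1, a prolyl hydroxylase needed for a stable helix, rose by 0.34 ± 0.07 (adjusted p = 0.000826), and the integrin chain Itgb1 by 0.28 ± 0.06 (adjusted p = 0.0017). In the same libraries the 7 pan-leukocyte markers were each higher in every NET culture, with sums of 8.61 to 10.6 CPM in NET cultures and 0.781 to 1.30 CPM in control cultures. The fibroblast markers, most of the sum being Pdgfra, summed to 114.5 to 119 CPM in NET cultures and 96.5 to 99.95 CPM in control cultures, with 2 of 12 higher and 1 lower in every NET culture. The neutrophil markers, 3 of 9 of them higher, summed to 2.34 to 3.84 CPM in NET cultures and 0.312 to 1.05 CPM in control cultures. The mesothelial marker list, nearly all Msln, summed to 478 to 547 CPM in NET cultures and 279 to 320 CPM in control cultures. The pericyte and smooth muscle markers summed to 8.48 to 8.61 CPM in NET cultures and 13.5 to 16.8 CPM in control cultures. Of these 10 markers only Pdgfrb was lower in every NET culture, and 0 were higher. The monocyte and macrophage markers, most of the sum being Cd68, summed to 143 to 165 CPM in NET cultures and 82.7 to 104 CPM in control cultures, with 5 of 8 higher. The part of these lists in the collagen changes was not tested.

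Sorted tumour cells carried a collagen profile of another size and make-up than the cultured line. The 44 chains summed to 15400 to 27467 CPM in the 8 tumour libraries and to 2177 to 2565 CPM in the 3 control cultures. Of 36 chains tested in the fit of all 14 libraries, 23 were higher and 5 lower in tumours, 77.8% against 73.3% of all 14421 genes (38.6% higher and 34.7% lower). Chains had a median log2 fold change of 2.59, against 0.06 for all genes, or 2.53 where the 5 chains with at most 3 counts over the control cultures were set at that floor. Sorting, growth in the lung and time in a host all go with the tumour group and cannot be told apart here.

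The 2 classes that grew most were the beaded filament and the fibrillar chains. Beaded filament chains summed to 8016 to 13958 CPM in tumours and 178 to 204 CPM in control cultures, and all 5 tested members were higher. Of these, Col6a4 was scarce and overlapped, at 0.453 to 3.77 CPM in tumours and 0.243 to 0.546 CPM in control cultures. Its call was lost without control culture replicate 2 (adjusted p = 0.07). Col6a3 ran from 3883 to 7545 CPM in tumours (median 5827) and from 23.4 to 28.2 CPM in control cultures (log2 fold change 7.76 ± 0.13, adjusted p = 8.57e-14). Col6a2 (6.05 ± 0.22, adjusted p = 1.56e-10) and Col6a1 (4.25 ± 0.17, adjusted p = 2.21e-10) were higher by less. Per kilobase, Col6a3 was 0.743 to 1.48 times Col6a1 in the 8 tumour libraries and 0.0837 to 0.0905 of it in the control cultures. Col6a1 was 1.34 to 1.49 times Col6a2 in tumours and 4.80 to 5.32 times in control cultures. The chain Col6a5, a further partner in type VI trimers, had 19.2 to 77.5 CPM in tumours and at most 1 count in a control culture.

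Fibrillar chains summed to 5490 to 12417 CPM in tumours and 482 to 583 CPM in control cultures, with 9 of 11 chains higher and 1 lower. Type I collagen was scarce in culture. Col1a1 ran from 725 to 2584 CPM in tumours and from 1.18 to 1.86 CPM in control cultures (log2 fold change 9.73 ± 0.38, adjusted p = 1.23e-09). Its partner Col1a2 ran from 59.8 to 686 CPM in tumours and from 0.0811 to 0.430 CPM in control cultures (9.79 ± 0.64, adjusted p = 2.42e-07). Type I collagen is mostly a trimer of 2 Col1a1 chains and 1 Col1a2 chain. Col1a1 was 3.40 to 11.2 times Col1a2 per kilobase in the tumour libraries. Col3a1 reached 1891 to 7936 CPM in tumours, against 36.9 to 40.4 CPM in control cultures (6.46 ± 0.38, adjusted p = 9.65e-08). Col5a2 rose by 8.88 ± 0.45 (adjusted p = 1.09e-08), Col5a3 by 4.44 ± 0.17 (adjusted p = 1.16e-10) and Col5a1, already abundant in culture, by 2.16 ± 0.12 (adjusted p = 2.08e-09). Col11a1 was the exception, with 1.28 to 52.0 CPM in tumours and 35.7 to 42.6 CPM in control cultures (-1.26 ± 0.46, adjusted p = 0.0313). The call on Col11a1 did not hold with a replicate block (adjusted p = 0.0724) or with no filter on low counts (0.0622). That call was lost without any single control culture, without WT control replicate 1 and without either WT laparotomy library (adjusted p = 0.0519 to 0.081).

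Type IV chains ran the other way. Their sum was 183 to 528 CPM in tumours and 1058 to 1205 CPM in control cultures, and 4 of the 6 chains were lower. Col4a6 fell to 0.0433 to 0.793 CPM in tumours, against 50.4 to 55.4 CPM in control cultures (log2 fold change -7.24 ± 0.25, adjusted p = 6.48e-11). Its head-to-head neighbour Col4a5 had 6.16 to 18.8 CPM in tumours and 211 to 226 CPM in control cultures (-4.17 ± 0.20, adjusted p = 8.4e-09). The pair Col4a1 (-1.40 ± 0.16, adjusted p = 7.24e-06) and Col4a2 (-1.54 ± 0.15, adjusted p = 1.3e-06) fell by less. The ranges of their ratio overlapped: Col4a2 per kilobase was 0.571 to 0.665 of Col4a1 in tumours and 0.658 to 0.688 of it in control cultures.

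In the remaining classes, Col7a1 (2.53 ± 0.13, adjusted p = 1.15e-09) and Col18a1 (2.65 ± 0.16, adjusted p = 7.04e-09) were higher in tumours on the log2 scale, and so was Col12a1 (5.69 ± 0.95, adjusted p = 0.000446). The Col12a1 value was 4.98 to 5.90 over single omissions. KO laparotomy replicate 2 held 1369 CPM of Col12a1, against 58.3 to 216 CPM in the other tumour libraries. Col16a1, a FACIT chain, had 225 to 420 CPM in tumours and 295 to 386 CPM in control cultures, and gave no call (-0.08 ± 0.18, adjusted p = 0.688). Col8a1 had 2.45 to 35.4 CPM in tumours and 10.2 to 14.2 CPM in control cultures (-0.51 ± 0.23, adjusted p = 0.0554), with the 2 KO control libraries above all cultures. The transmembrane chain with the highest mean in tumours was Col23a1, at 0.264 to 3.66 CPM in tumours and at most 0.215 CPM in a control culture (3.47 ± 0.99, adjusted p = 0.00609). Its log2 fold change ran from 3.17 to 7.35 over the alternatives that keep all libraries, and from 2.85 to 4.01 over single omissions. Col26a1, the higher of the 2 other chains, had at most 1.26 CPM in a tumour library and no count in a control culture.

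Ordered by level per kilobase of transcript, the leading chains of control cultures were Col4a1 at 72.0 to 84.3 CPM per kb, Col16a1 at 56.7 to 74.1, Col4a2 at 49.6 to 56.7, Col5a1 at 43.0 to 52.6, Col4a5 at 32.3 to 34.5 and Col6a1 at 30.5 to 34.6. In this order Col4a1 and Col16a1 overlapped, as did Col4a2 and Col5a1, and Col4a5 and Col6a1. NET cultures kept the first 5 places, but Col6a1, at 8.10 to 8.31 CPM per kb, came after Col7a1 and Col5a3. In tumours the first 3 places were held by Col6a3 at 431 to 838 CPM per kb (median 647), Col6a1 at 448 to 881 (median 607) and Col3a1 at 340 to 1426 (median 521), which overlapped throughout. The mean over the 8 libraries put Col3a1 first, at 656 CPM per kb, through KO laparotomy replicate 2 (1426); in the KO control, WT laparotomy and WT control groups its mean was the lowest of the 3. Next came Col6a2 at 314 to 590, Col1a1 at 122 to 436, Col5a1 at 184 to 259 and Col5a3 at 130 to 207, each overlapping its neighbour. Col4a1, at 15.2 to 50.4 CPM per kb, was in place 12.

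**Figure D3:**
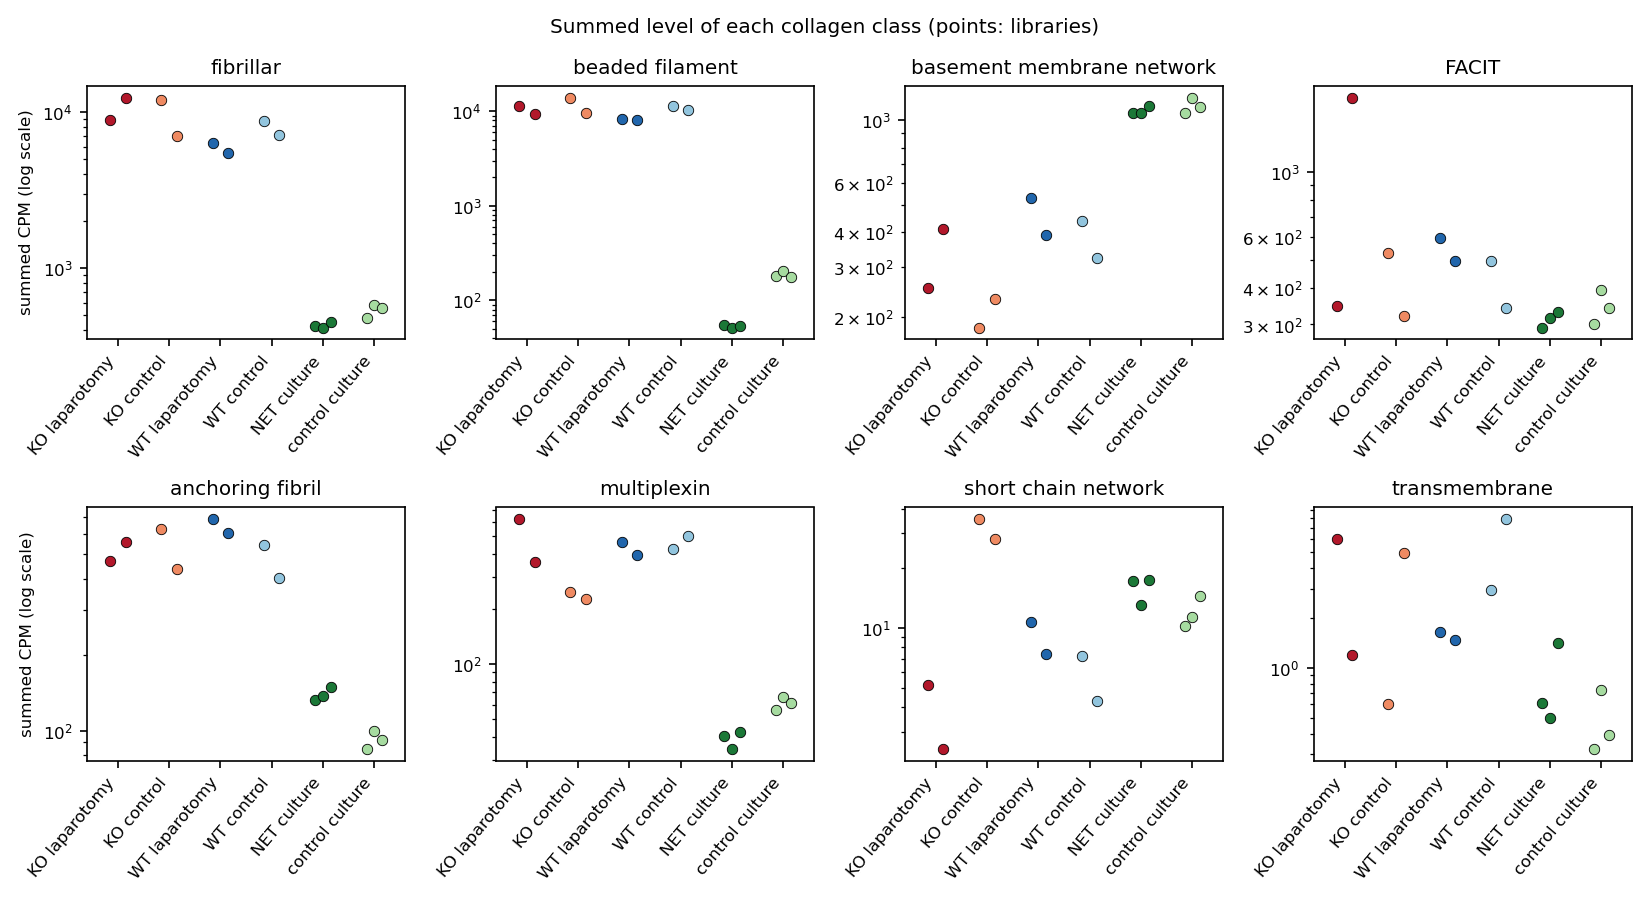
Summed CPM of the chains of 8 collagen classes (log axis) in the 6 groups; each point is a library. Fibrillar, beaded filament, anchoring fibril and multiplexin sums are higher in all tumour libraries than in all cultures, the basement membrane network sum is lower, and the FACIT sum of KO laparotomy replicate 2 is 1796 CPM, against 320 to 595 CPM in the other tumour libraries.

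Host-cell markers moved with this comparison. The 12 fibroblast markers summed to 385 to 682 CPM in tumours and 96.5 to 99.95 CPM in control cultures. Of the 12, 9 were higher in every tumour library and 1 was lower. The lower marker was Mfap5, with 0.830 to 6.02 CPM in tumours and 7.41 to 9.32 CPM in control cultures. The 10 pericyte and smooth muscle markers summed to 274 to 752 CPM in tumours and 13.5 to 16.8 CPM in control cultures. Most of this sum was Pdgfrb, with 238.5 to 690 CPM in tumours and 8.59 to 11.6 CPM in control cultures. Of the 10, 6 were higher in every tumour library and 0 were lower. Of the fibroblast list, Tcf21, Inmt, Meox2 and Clec3b had no count in the control cultures, while Pdgfra had 83.8 to 85.8 CPM there. The 10 endothelial markers summed to 57.5 to 659 CPM in tumours and 33.4 to 34.8 CPM in control cultures. Their part in the collagen levels was not tested.

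Of the genes that handle collagen, 31 were higher and 12 lower in tumours of 53 tested, 81.1% against 73.3% of all genes. The collagen chaperone Serpinh1 ran from 1568 to 2562 CPM in tumours and from 315 to 362 CPM in control cultures (log2 fold change 2.46 ± 0.10, adjusted p = 1.63e-10). All 6 tested fibril-binding proteoglycans were higher, Dcn by 5.30 ± 0.38 (adjusted p = 4.62e-07). Sparc rose by 2.71 ± 0.12 (adjusted p = 2.08e-10). The hydroxylases P4ha1 (-0.50 ± 0.07, adjusted p = 1.38e-05) and P3h2 (-2.86 ± 0.24, adjusted p = 1.09e-07) were lower. Other hydroxylases went both ways. Plod1 had 217 to 386.5 CPM in tumours and 117 to 131 CPM in control cultures. Plod2 (394 to 525 against 179 to 197 CPM), P3h3 (77.4 to 130 against 31.4 to 33.15 CPM) and P4ha3 (2.36 to 14.3 against 0.752 to 1.33 CPM) were also higher throughout. P3h1 was lower throughout (69.8 to 116 against 118 to 139 CPM).

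Surgery and host genotype were compared within the tumour libraries, 2 against 2, in 1 edgeR fit of all 8. In these designs few chains passed: 1 after laparotomy in KO hosts and 2 in the test of whether laparotomy acted differently in the 2 hosts. Those were Col8a1 and Col5a2. KO laparotomy replicate 2 stood apart in several genes. Its Col12a1 was 1369 CPM, against 58.3 to 216 CPM in the other 7 tumour libraries, and its Col3a1 was 7936 CPM, against 1891 to 5129 CPM. Its Dcn was 1515 CPM, against 231 to 564 CPM, and its Lum, another fibril-binding proteoglycan, was 713 CPM, against 67.1 to 190 CPM. These were noticed in the values and gave no call in any comparison of tumours. Marker counts below are of markers for which the compared groups did not overlap. With 2 libraries a group many genes separate by chance, and the share of all genes that did so was not counted.

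Laparotomy in KO hosts was compared with KO control hosts. Of 36 chains 1 was called and it was lower, 2.78% against 0.52% of all 14615 genes (0.178% lower). Col8a1 had 4.69 and 2.45 CPM in KO laparotomy libraries and 35.4 and 28.02 CPM in KO control libraries (log2 fold change -3.14 ± 0.44, adjusted p = 0.0322). Both laparotomy libraries were below both controls, by a factor larger than the spread within either group. The call was lost without KO control replicate 1 (adjusted p = 0.249), without KO laparotomy replicate 1 (0.0544) or 2 (0.102), and without WT laparotomy replicate 1 (0.0692) or 2 (0.0786), with a log2 fold change of -3.69 to -2.77 over all single omissions. Next by p were the multiplexins, which missed the threshold. Col18a1 had 615 and 356 CPM in KO laparotomy libraries and 246 and 227 CPM in KO control libraries (1.04 ± 0.24, adjusted p = 0.106). Col15a1 had 6.15 and 3.78 CPM in KO laparotomy libraries and 1.40 and 1.18 CPM in KO control libraries (1.95 ± 0.47, adjusted p = 0.113). Neither pair of groups overlapped, which is likely for genes chosen by the smallest p. At an unadjusted p under 0.05 there were 8 chains (22.2%, against 15.7% of all genes). DESeq2 called 5 chains, 3 higher and 2 lower (13.9%, against 5.4% of all genes). The pericyte and smooth muscle sum was 416 and 274 CPM in KO laparotomy libraries and 752 and 459.5 CPM in KO control libraries, although 3 of its 10 markers were higher and 2 lower in both KO laparotomy libraries. The fibroblast sum was 529 and 666 CPM in KO laparotomy libraries and 390.1 and 385 CPM in KO control libraries, with 3 of 12 markers higher and 1 lower. Of 10 endothelial markers none separated the groups. The part of these cells in the collagen values was not tested.

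Laparotomy in WT hosts was compared with WT control hosts. None of 36 chains passed in edgeR, against 0.0547% of all genes (0.0342% lower); 8 chains (22.2%) had an unadjusted p under 0.05, against 18.8% of all genes, and DESeq2 called 4 (11.1%), all lower, against 8.26%. The smallest p belonged to Col5a2, a type V chain of fibrils, with 62.9 and 40.9 CPM in WT laparotomy libraries and 232 and 316 CPM in WT control libraries (log2 fold change -2.42 ± 0.37, adjusted p = 0.0858), and it passed without KO laparotomy replicate 1 (adjusted p = 0.0312) or 2 (0.0335). Col6a3 had 3883 and 3967 CPM in WT laparotomy libraries and 6362 and 5701 CPM in WT control libraries (-0.64 ± 0.14, adjusted p = 0.135). Col15a1 had 1.82 and 1.29 CPM in WT laparotomy libraries and 5.82 and 5.21 CPM in WT control libraries (-1.85 ± 0.46, adjusted p = 0.138). In each of the 3 genes both laparotomy libraries were below both controls, which is likely for genes chosen by the smallest p. Many host-cell markers were lower too: 11 of 12 fibroblast, 10 of 10 endothelial, 11 of 11 lung epithelial and 8 of 8 monocyte and macrophage markers were lower in both WT laparotomy libraries. Of 10 pericyte and smooth muscle markers 5 were lower and 1 higher, and of 5 mesothelial markers 3 were lower and 1 higher. Of 5 chondrocyte markers 2 were higher. The share of all genes without overlap between these groups was not counted. The endothelial sum was 57.5 and 59.5 CPM in WT laparotomy libraries and 148 and 659 CPM in WT control libraries. The fibroblast sum, largely Pdgfra, was 635 and 454 CPM in WT laparotomy libraries and 561 and 682 CPM in WT control libraries, while Fap had 2.16 and 1.66 CPM in WT laparotomy libraries and 9.31 and 9.42 CPM in WT control libraries. Meox2 had no count in either WT laparotomy library. The part of these cells in the collagen values was not tested.

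The difference between the laparotomy effects was tested as an interaction, and 2 of 36 chains passed, 5.56% against 0.677% of all genes. For Col8a1 the effect in KO hosts (-3.14 ± 0.44) minus that in WT hosts (0.78 ± 0.42) was -3.93 ± 0.60 on the log2 scale (adjusted p = 0.0378). WT libraries held 10.51 and 7.34 CPM of it after laparotomy and 6.98 and 3.43 CPM without. For Col5a2 the effect in KO hosts (1.03 ± 0.36) minus that in WT hosts (-2.42 ± 0.37) was 3.45 ± 0.52 (adjusted p = 0.0475). KO libraries held 156 and 322 CPM of it after laparotomy and 118 and 117 CPM without. Col15a1 came next at 3.79 ± 0.66 (adjusted p = 0.0528). Over single omissions the difference ran from -4.51 to -3.47 for Col8a1 and from 2.81 to 3.87 for Col5a2. Col8a1 lost its call without KO control replicate 1, either WT laparotomy library or either KO laparotomy library (adjusted p = 0.0512 to 0.184). Col5a2 lost it without any one of the 2 WT control, 2 WT laparotomy or 2 KO control libraries (adjusted p = 0.0545 to 0.23) with no filter on low counts (0.0928) and with a replicate block (0.0836). DESeq2 called 5 chains, 3 higher and 2 lower, 13.9% against 7.92% of all genes.

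**Figure D4:**
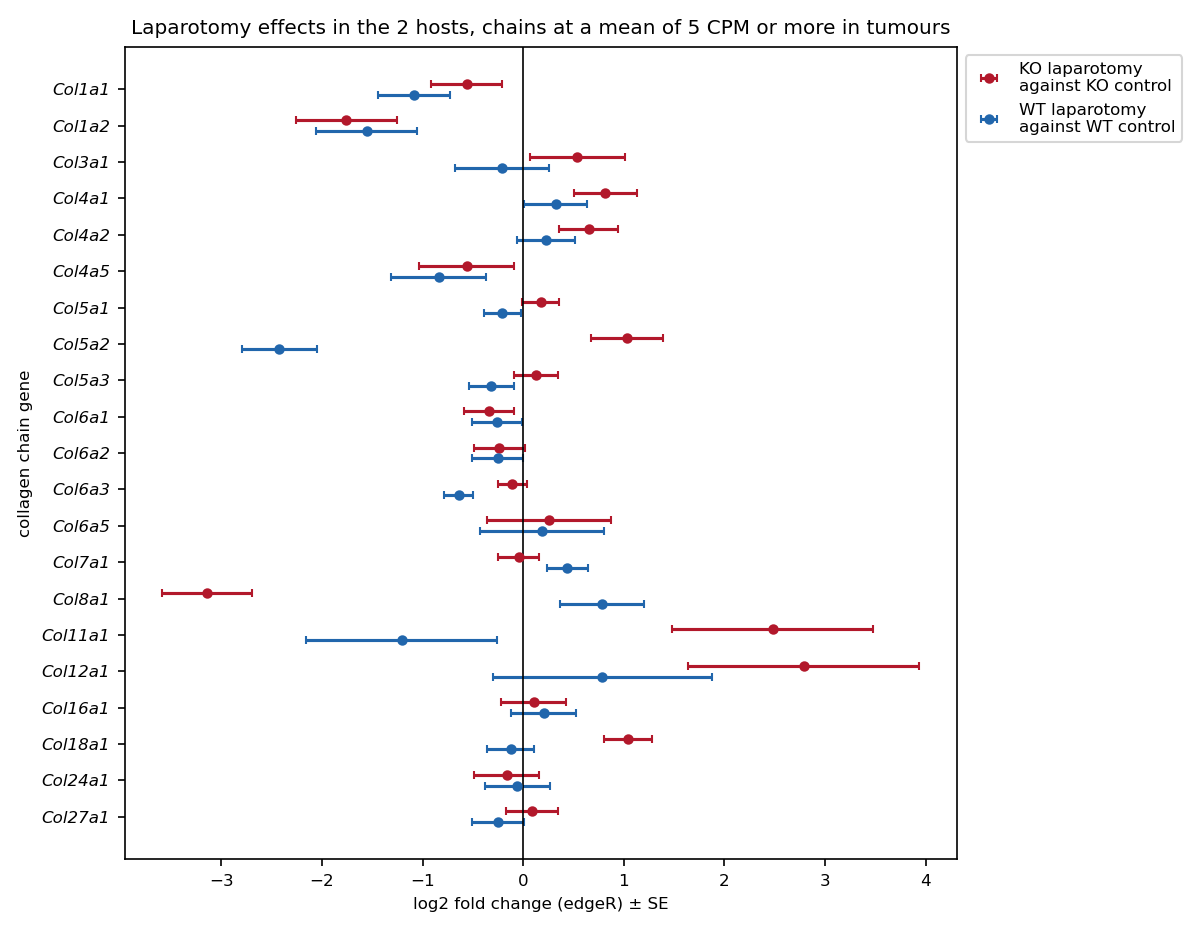
Log2 fold change with laparotomy (edgeR, ± SE) in KO hosts and in WT hosts for each collagen chain with a mean of at least 5 CPM in tumours. Col8a1 lies at -3.14 in KO hosts and 0.78 in WT hosts, and Col5a2 at 1.03 in KO hosts and -2.42 in WT hosts.

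Host PAD4 loss without surgery gave no call among the 36 chains in edgeR, against 0.116% of all genes (0.0616% lower); 8 (22.2%) had an unadjusted p under 0.05, against 16.3% of all genes, and DESeq2 called 6 (16.7%), 1 higher and 5 lower, against 5.36%. Col8a1, given above in both control groups, was higher in both KO control libraries than in both WT control libraries (log2 fold change 2.62 ± 0.43, adjusted p = 0.0741), and passed without WT control replicate 1 (adjusted p = 0.0264) and with no filter on low counts (0.0105). Col15a1 (-2.10 ± 0.47, adjusted p = 0.127) and Col18a1 (-0.97 ± 0.24, adjusted p = 0.148) were lower in both KO control libraries. Col18a1 had 246 and 227 CPM in KO control libraries and 422 and 498 CPM in WT control libraries. It passed without KO laparotomy replicate 1 (adjusted p = 0.0475) or 2 (0.0456). Here 8 of 8 monocyte and macrophage markers were lower in both KO control libraries. Of 10 pericyte and smooth muscle markers 6 were lower and 2 higher, and their sum was higher, at 752 and 459.5 CPM in KO control libraries and 424 and 438 CPM in WT control libraries. Of 12 fibroblast markers 4 were lower and 2 higher. Their part in the collagen values was not tested. This comparison and the preceding ones share libraries, so their values are not independent.

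Host PAD4 loss with laparotomy gave no call either, against 0.0205% of all genes; 8 chains (22.2%) had an unadjusted p under 0.05, against 13.4% of all genes, and DESeq2 called 4 (11.1%), 3 higher and 1 lower, against 3.88%. Col5a2 was higher in both KO laparotomy libraries than in both WT laparotomy libraries (log2 fold change 2.22 ± 0.37, adjusted p = 0.111), and so was Col6a3, with 6181 and 5952 CPM in KO laparotomy libraries and 3883 and 3967 CPM in WT laparotomy libraries (0.64 ± 0.14, adjusted p = 0.144). Col9a2, a FACIT chain known from cartilage, had 0 and 2 counts in KO laparotomy libraries and 75 and 83 counts in WT laparotomy libraries. Its ratio was 0.023, with a 95% exact interval of 0.00277 to 0.0846 that covers counting error only (adjusted p = 0.111). In a fit of these 4 libraries alone, Col6a3 and Col9a2 passed (adjusted p = 0.0286 and 0.0444). Col6a3 per kilobase was 1.02 and 1.48 times Col6a1 in KO laparotomy libraries and 0.743 and 0.820 times in WT laparotomy libraries. In the same comparison 10 of 12 fibroblast, 9 of 10 endothelial and 11 of 11 lung epithelial markers were higher in both KO laparotomy libraries. Of 10 pericyte and smooth muscle markers 3 were higher and 1 lower. Of 5 chondrocyte markers 2 were lower (Acan and Matn3, both under 1 CPM in these libraries). Of 9 neutrophil markers 7 were higher and 1 lower, and of 5 mesothelial markers 2 were higher and 2 lower. Of 7 pan-leukocyte markers 5 were higher, and of 8 monocyte and macrophage markers 4. The part of these cells in the collagen values was not tested.

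**Figure D5:**
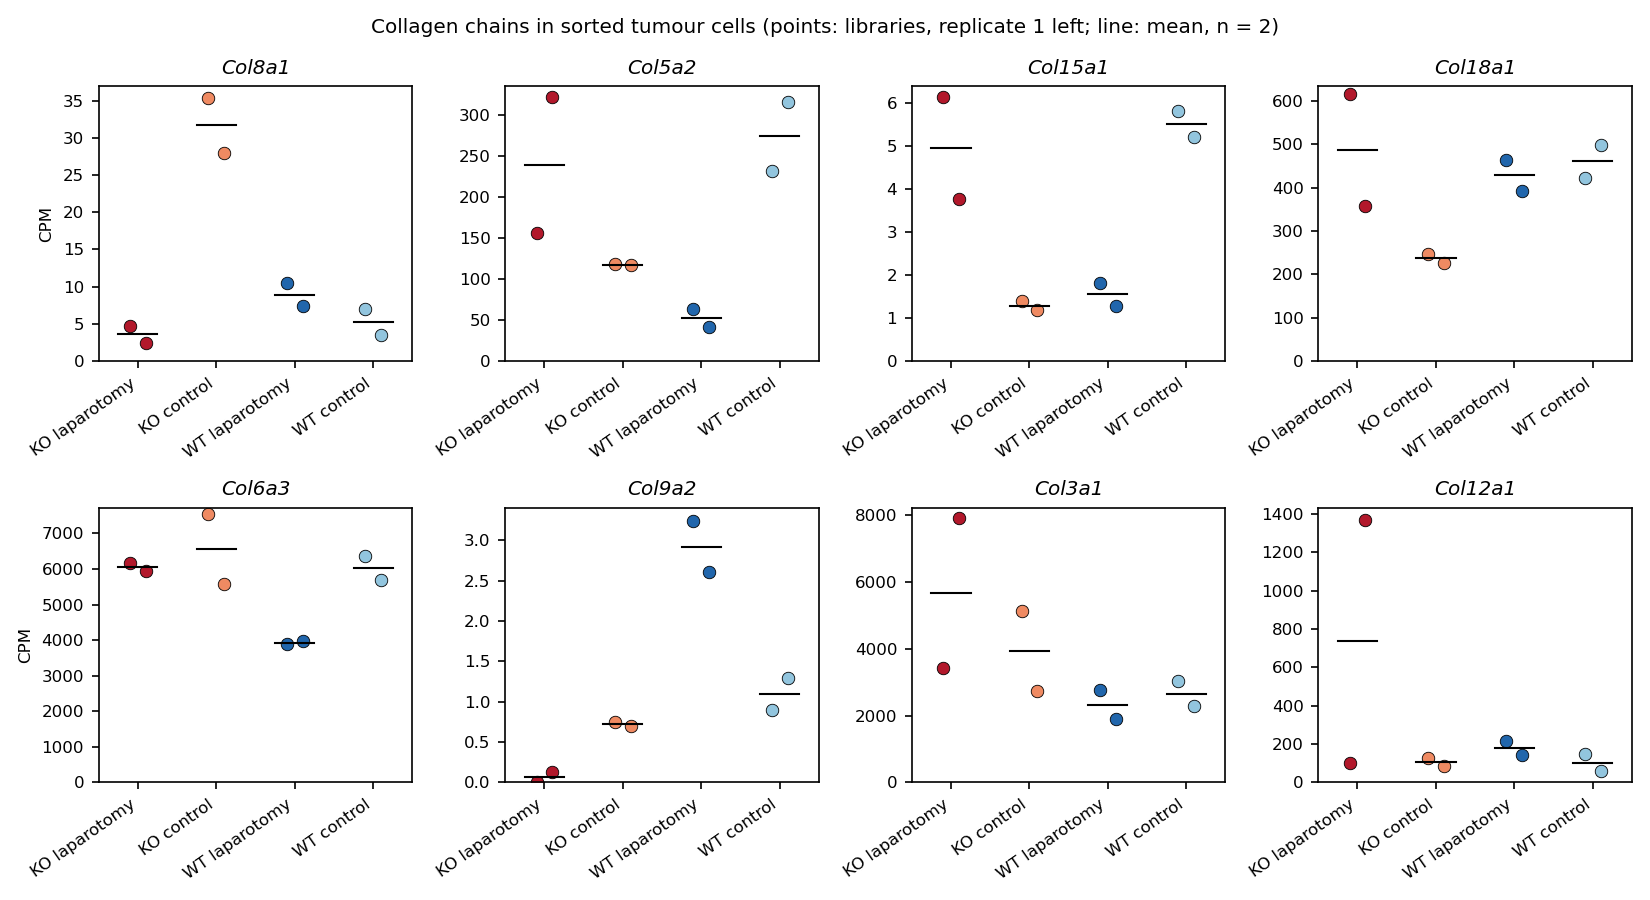
CPM of 8 collagen chains in the 4 tumour groups; points are libraries (replicate 1 on the left) and lines are means (n = 2). Col8a1 is highest in the 2 KO control libraries (35.4 and 28.02 CPM), Col5a2 is lowest in the 2 WT laparotomy libraries (62.9 and 40.9 CPM), and Col12a1 is high in 1 KO laparotomy library (1369 CPM).

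Summed over the 44 chains, collagen stood at 22024 and 24825 CPM in KO laparotomy libraries, 27467 and 17936 CPM in KO control libraries, 16823 and 15400 CPM in WT laparotomy libraries and 22115 and 19092 CPM in WT control libraries. Both WT laparotomy libraries lay below the 6 others, and the KO groups overlapped. Of the 60 genes that handle collagen, 54 were tested in tumours and none passed in edgeR in any of the 5 tumour comparisons. At an unadjusted p under 0.05 there were 17 after laparotomy in KO hosts, 14 after laparotomy in WT hosts, 15 for KO control against WT control, 11 for KO laparotomy against WT laparotomy, and 21 in the interaction. As shares these were 31.5, 25.9, 27.8, 20.4 and 38.9%, against 15.7, 18.8, 16.3, 13.4 and 19.2% of all genes. DESeq2 called 7, 11, 7, 3 and 13 of them in that order, while it called 5.4, 8.26, 5.36, 3.88 and 7.92% of all genes.

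The 4 genes nearest the threshold were Pcolce, Nid1, Loxl1 and Adamts2. Nid1, which links laminin to type IV collagen, had 5.36 and 3.95 CPM in WT laparotomy libraries and 18.9 and 24.7 CPM in WT control libraries (log2 fold change -2.25 ± 0.31, adjusted p = 0.0555). Pcolce, the enhancer of procollagen C-proteinase, had 774 and 794 CPM in KO laparotomy libraries and 443 and 473 CPM in KO control libraries (0.78 ± 0.13, adjusted p = 0.054). Its interaction was 1.06 ± 0.18 (adjusted p = 0.0504). Loxl1, a cross-linking oxidase, had 4.83 and 4.44 CPM in KO laparotomy libraries and 16.3 and 12.6 CPM in KO control libraries (-1.63 ± 0.30, adjusted p = 0.0647). Adamts2, which trims procollagen at its amino end, had 4.89 and 2.25 CPM in KO laparotomy libraries, 0.491 and 1.44 CPM in KO control libraries, 0.649 and 0.752 CPM in WT laparotomy libraries and 6.09 and 4.47 CPM in WT control libraries (interaction 4.80 ± 0.96, adjusted p = 0.0699). The compared groups of these 4 genes did not overlap, which is likely for genes chosen by the smallest p, and none of the differences passed. Further down the order were Fkbp7, a folding isomerase of the endoplasmic reticulum (-0.82 ± 0.20, adjusted p = 0.136) and Serpinh1 (-0.60 ± 0.16, adjusted p = 0.144) for laparotomy in WT hosts, and P4ha2, a prolyl hydroxylase (0.47 ± 0.10, adjusted p = 0.0985) and Adamts14, a relative of Adamts2 (-0.79 ± 0.18, adjusted p = 0.102) for laparotomy in KO hosts. For KO control against WT control, Pcolce had a log2 fold change of -0.67 ± 0.13 (adjusted p = 0.0956), P4ha2 -0.51 ± 0.10 (0.107), Adamts2 -2.44 ± 0.67 (0.177) and the collagen galactosyltransferase Colgalt1 -0.47 ± 0.13 (0.184). For KO laparotomy against WT laparotomy, Nid1 had 1.18 ± 0.30 (adjusted p = 0.177), the prolyl hydroxylase P3h1 0.57 ± 0.15 (0.195), Adamts2 2.35 ± 0.68 (0.222) and the proteoglycan Ogn 0.89 ± 0.27 (0.235). In the interaction Nid1 had 2.01 ± 0.42 (adjusted p = 0.0752) and P4ha2 0.68 ± 0.15 (adjusted p = 0.0786).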

How the data were processed

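RNA of cultured and flow-sorted MC-38 cells was sequenced in 14 libraries. The authors deposited raw read counts per gene, unstranded and for each strand, made with Trimmomatic and STAR on mm10 per the submitters' processing notes; the sources used here do not give versions, options, annotation or kit. The unstranded counts were used, in which reads of a stretch shared by genes on opposite strands cannot be told apart (22 bases for Col4a1 and Col4a2), and the strand column was an alternative. The 4 summary lines of each table were left out: unmapped reads were 4.00 to 11.5%, multimapping reads 6.14 to 9.25%, reads without a feature 12.1 to 24.0% and ambiguous reads 1.11 to 1.51% of the reads.

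Tests used the quasi-likelihood method of edgeR 4.0.16 under R 4.3.3 (filterByExpr, TMM, robust glmQLFit), with Benjamini-Hochberg adjustment over all genes tested and a threshold of 0.05, in fits of the 6 culture libraries (11753 genes), the 8 tumour libraries (14615 genes) and all 14 (14421 genes, mean of the 4 tumour groups minus control culture). Standard errors come from the F statistic. CPM values use TMM factors over all 14 libraries, so fold changes of CPM and fitted values can differ slightly. A count of 0 allows up to 0.096 to 0.47 CPM by library (3 counts, counting error only). Lengths are those of the longest CCDS-tagged transcript (GENCODE M21, GRCm38). The fits were tested on simulated data. Alternatives were DESeq2 1.42.0, other scalings, no filter, a replicate block, other sample sets and single omissions.

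The members, gene lists and rules were chosen with earlier results of these data known. Named chains are those past the threshold in the culture or tumour fits, the top chain of each class in tumours and the 3 smallest p values of comparisons with fewer than 3 calls. From the 60 collagen-handling genes the rule took the 8 smallest p in culture and 4 in each tumour comparison. Those named in the comparison of tumours with culture, and Col12a1, Col3a1, Dcn and Lum in KO laparotomy replicate 2, were chosen after their values were seen.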

Additional observations from a re-analysis of the deposited data

Results flagged for a closer look

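The 2 collagen chains given here were picked out because the laparotomy effect differed between the hosts by a test of the difference itself. For Col8a1 the effect in KO hosts minus the effect in WT hosts was -3.93 on the log2 scale, and for Col5a2 it was 3.45 (edgeR, adjusted p = 0.0378 and 0.0475). Each rests on 2 libraries a group, and the single omissions that end each call are given with the results above.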

How the results depend on the processing

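Directions of the named genes held under every alternative run except 1: Col16a1 in tumours against control culture was 0.017 without control culture replicate 2 (adjusted p = 0.948), in a range of -0.20 to 0.017 over single omissions. Of the alternatives that keep all libraries, 463 fold changes kept their side of the threshold, 76 gained a call and 20 lost one; over single omissions 648 kept it, 20 gained and 37 lost. Counts of called chains changed as follows, in the order KO laparotomy against KO control, WT laparotomy against WT control, KO control against WT control, KO laparotomy against WT laparotomy and the interaction. Against 1, 0, 0, 0 and 2 they were 5, 4, 6, 4 and 5 in DESeq2 and 4, 4, 5, 3 and 5 in the fit of all 14 libraries. Calls over all genes grew as well, to 789, 1207, 784, 567 and 1158 in DESeq2 and 1132, 1450, 1046, 712 and 1596 in that fit, against 76, 8, 17, 3 and 99. That fit also called 6 chains (1 higher, 5 lower) for NET against control culture, against 14. No filter gave 1 for WT laparotomy and for each KO against WT comparison, and the compared groups alone gave 3 for KO laparotomy against WT laparotomy. Single omissions gave 0 to 1, 0 to 1, 0 to 1, 0 to 0 and 0 to 2, with 10 to 13 in culture and 25 to 30 in tumours against control culture. For the collagen-handling genes, where these 5 comparisons had 0 calls, DESeq2 gave 7, 11, 7, 3 and 13 and the fit of all 14 libraries 8, 8, 7, 2 and 14, with 9 against 19 in culture. RLE scaling gave 1 for KO laparotomy and 1 for the interaction, library totals 1 and the strand column 2 for the interaction. No filter gave 3, 1, 1 and 4 for KO laparotomy, WT laparotomy, KO control and the interaction, and the compared groups alone 1 for KO laparotomy against KO control and 1 against WT laparotomy. Single omissions gave 0 to 3, 0 to 2, 0 to 2, 0 to 0 and 0 to 3, with 15 to 22 in culture and 40 to 45 in tumours. The summed level of NET cultures was 1933 CPM with library totals, against 2076 CPM. The cause of these changes was not tested.

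Replicate numbers were checked for pairing. Correlations of same-numbered deviations were 0.0904, 0.0938 and -0.0259 in culture, 0.0529 in WT hosts, -0.134 in KO hosts, 0.394 between the control hosts and -0.026 between the laparotomy hosts, and no label ties the numbers, so they were not treated as pairs. In both control hosts replicate 2 had the higher lung epithelial sum (429 CPM in KO control and 868 CPM in WT control, against 46.8 and 151 CPM in their replicates 1). A replicate block kept 14 chains in culture and 1 in KO laparotomy, and left 27 against 28 in tumours. In the interaction it left 1 of 2, as Col8a1 kept its call and Col5a2 lost it (adjusted p = 0.0836). Crossing the KO laparotomy numbers gave 2 chains and 1 collagen-handling gene. Alternatives for the summed levels and the collagen-handling genes, and the crossed block, were chosen after seeing the data. The biological coefficient of variation was 0.278 in the tumour fit and 0.0633 in the culture fit.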
